A study of Mus musculus with 6 samples.

Results

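The glutathione S-transferases (Gst), UDP-glucuronosyltransferases (Ugt), sulfotransferases (Sult) and carboxylesterases (Ces) were taken from an expression profile of mouse dorsal skin. They were found by gene symbol in the platform annotation, as every probe set with a symbol that begins with Gst and the class letter a, k, m, o, p, t or z, or with Ugt, Sult or Ces, followed by a number. This gave 76 of the 23410 probe sets that carry at least 1 symbol, of which 64 belong to 1 gene each (62 genes) and 12 are shared by several symbols. By family there were 26 Gst, 15 Ugt, 18 Sult and 17 Ces probe sets.

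Conjugating enzymes attach a polar group to a small molecule and so make it easier to excrete. Glutathione S-transferases add glutathione to electrophiles such as the products of lipid peroxidation, UDP-glucuronosyltransferases add a sugar, and sulfotransferases add sulfate to phenols, steroids and sterols. Carboxylesterases open ester and amide bonds, in foreign compounds as well as in stored triacylglycerol. In liver several of these enzymes are known as outputs of the circadian clock, and skin, which meets foreign chemicals directly, carries its own set of them.

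The 2 genotypes were Bmal1-/- mice, which lack the circadian transcription factor BMAL1 (gene symbol Arntl), and Bmal1+/- littermates that keep 1 copy, with 3 mice each and the RNA of each mouse on an Affymetrix array of its own. All were labelled postnatal day 22, and their follicles were in telogen, when hair growth pauses. The allele was missing from the whole body, and the controls were heterozygous, so no wild-type skin entered the comparison. Each mouse gave 1 sample and the arrays were not compared by time of day, so a daily rhythm cannot be read from them. Of the 6 mice, 5 were female; Bmal1+/- replicate 1 was labelled male, and its labels give day 23 in 1 place and day 22 in another.

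The gene that was targeted, Arntl (probe set 10556463), read 569, 609.8 and 664 in the Bmal1-/- mice, against 325, 365 and 355 in the Bmal1+/- mice. All 3 mutants lay above all 3 controls, a log2 fold change of 0.79 (limma: SE 0.08, adjusted p = 0.0037). The sources used here do not say whether these probes fall inside the deletion, so Arntl itself does not check the genotypes. Nr1d1 and Dbp, both known to be switched on by CLOCK and BMAL1, were wholly lower in the mutants. Nr1d1 read 204, 145 and 237 in the Bmal1-/- mice, against 1893, 1880 and 1561 in the Bmal1+/- mice (log2 fold change −3.11, adjusted p = 2e-05 from limma), and Dbp was at −2.55. Median intensities of the arrays ran between 219 and 235.5. Of the 47 measured genes of 8 marker lists for cell types of skin and for hepatocytes, 0 passed limma's test or the Cyber-T type test described below after adjustment, and at an unadjusted p under 0.05 from limma 3 (6.38%) were lower and 4 (8.51%) higher, against 4.6% and 4.17% of all probe sets. The median log2 fold change was −0.10 for basal keratinocyte, −0.14 for fibroblast, −0.12 for macrophage and −0.04 for sebaceous gland markers. It was −0.004 for striated muscle, 0.08 for suprabasal keratinocyte, 0.08 for adipocyte and 0.14 for hepatocyte markers. Among the skin markers Col17a1 and Mrc1 were wholly lower in the mutants, both at −0.15. Lor, Ivl and Pparg were wholly higher, at 0.17, 0.23 and 0.26. Skin was profiled whole, so fewer cells of a type and less RNA per cell cannot be told apart.

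Each probe set was tested on the scale log2(intensity + 16), as Bmal1-/- minus Bmal1+/-, so that a negative log2 fold change means lower in Bmal1-/- skin, and the change of a dim gene is understated. At an adjusted p under 0.05 from limma, none of the 76 members passed in Bmal1-/- skin (0 lower, 0 higher), while among all probe sets tested 31 (0.132%) passed as lower and 23 (0.0982%) as higher. At the study's threshold, an unadjusted p under 0.001, limma gave 1 lower, Ces1d, and 0 higher, against 93 (0.397%) lower and 59 (0.252%) higher over all probe sets. At an unadjusted p under 0.05 from limma, 9 (11.8%) were lower and 2 (2.63%) were higher, against 4.6% and 4.17% of all probe sets. In 10 (13.2%) the 3 Bmal1-/- mice all lay below the 3 Bmal1+/- mice and in 4 (5.26%) all above, where the background is 7.68% and 6.99%.

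These shares count several near-identical measurements. Of the 9 probe sets at an unadjusted p under 0.05 from limma, 4 carry the same symbols of the Gsta1 and Gsta2 genes and 2 carry Gstp1 with Gstp2. With each symbol or set of symbols counted once, a step added after the values had been seen, 5 of 69 (7.25%) were lower at that threshold and 2 (2.9%) higher, and 6 (8.7%) lay wholly below and 3 (4.35%) wholly above the controls. The 5 at that threshold were Ces1d, Gsta3, Gstt1 and the shared sets of Gsta1 with Gsta2 and of Gstp1 with Gstp2. With every probe set counted, 8 of the 26 Gst (30.8%) were lower at that threshold and 9 (34.6%) lay wholly below. Of the 15 Ugt and 18 Sult probe sets, 0 were lower at that threshold and 0 lay wholly below. Over the 76, the median log2 fold change was 0.04, against 0.01 over all probe sets tested. By family the median was −0.08 for Gst, 0.09 for Ugt, 0.10 for Sult and 0.00 for Ces. Of the Ugt probe sets 10 of 15, and of the Sult 13 of 18, had a mean intensity under 64. Over all probe sets that dim the median was 0.08.

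The 95% intervals were not adjusted for the number of probe sets, so they do not hold for all of them at once. Each bounds, for its own probe set, how large a change could have gone unseen on the scale tested. For dim probe sets that scale understates the change, so there the change in intensity itself is not bounded. The 95% interval of the log2 fold change lay within −0.5 and 0.5 for 66 of the 76 probe sets (86.8%). Over all probe sets tested the share was 88.6%. The interval lay within −1 and 1 for all 76. It lay within −0.5 and 0.5 for 15 of 15 Ugt and 24 of 26 Gst probe sets, but only for 14 of 18 Sult and 13 of 17 Ces. Of these, 10 Ugt and 13 Sult probe sets had a mean intensity under 64.

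**Figure D1:**
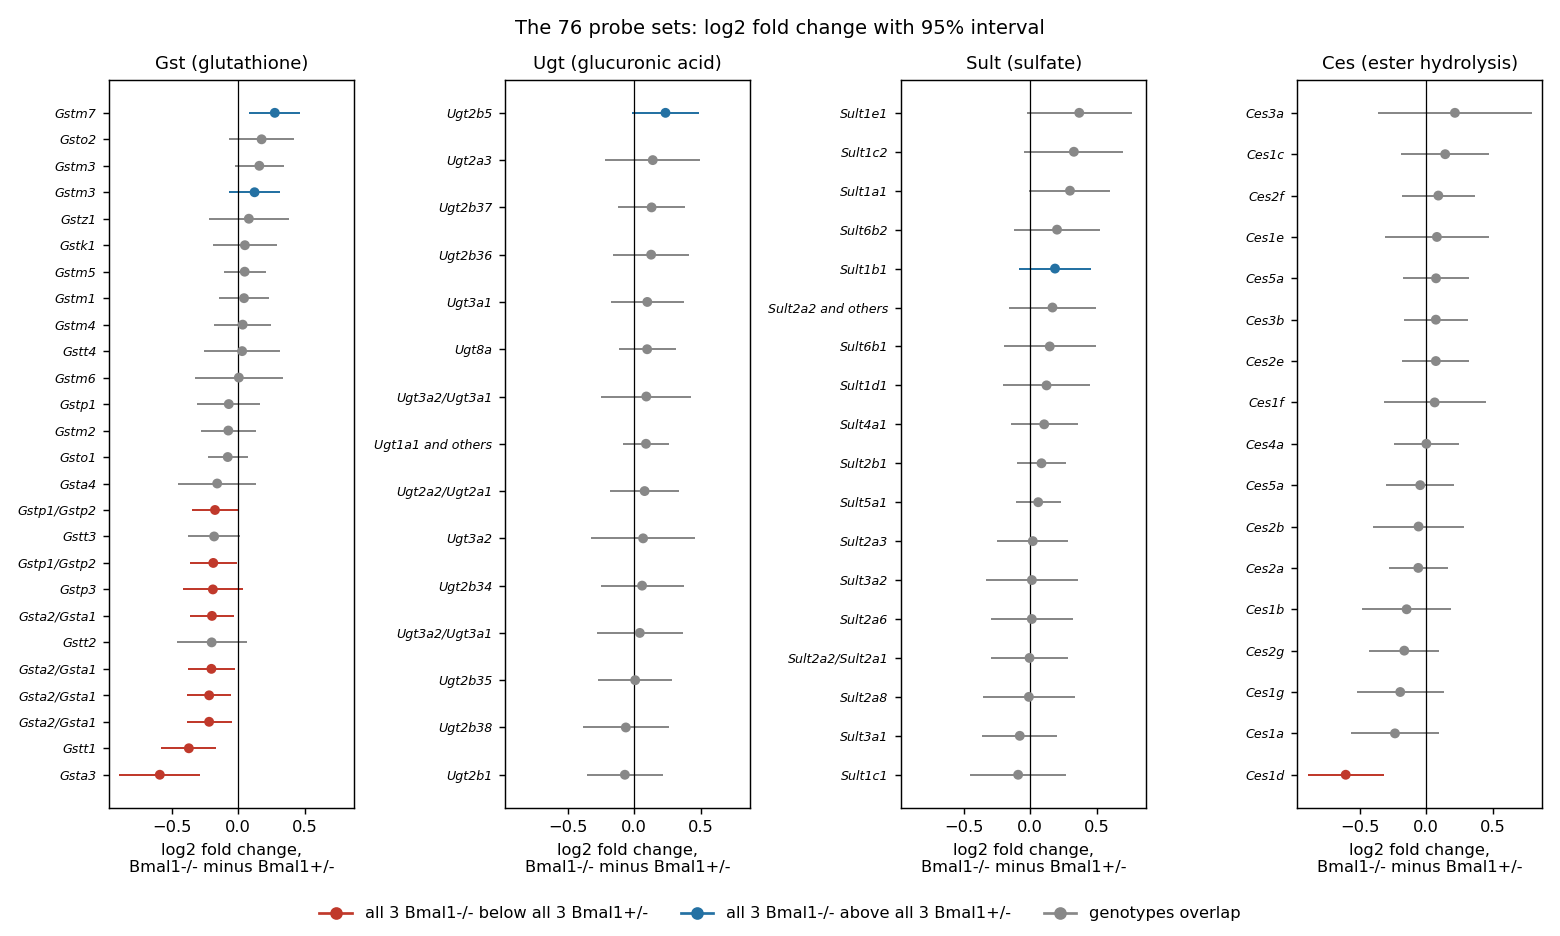
Log2 fold change (horizontal axis, Bmal1-/- minus Bmal1+/-, on log2(intensity + 16)) of each of the 76 probe sets with its 95% interval from limma, by family. Ces1d at −0.60 and Gsta3 at −0.59 lie farthest left, and 14 of 18 Sult and 13 of 15 Ugt points lie right of 0. Most Sult and Ugt probe sets had a mean intensity under 64, where 72.8% of all probe sets were positive. Of the 5 brighter Sult and 5 brighter Ugt probe sets most were positive too, against 52.0% of all brighter probe sets.

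Among the carboxylesterases, Ces1d (probe set 10580635) was the member with the lowest p. It encodes a triacylglycerol hydrolase of the endoplasmic reticulum and lipid droplets, known from mouse liver and adipose tissue. It read 856, 1174 and 1259 in the 3 Bmal1-/- mice, against 1566, 1746 and 1651 in the 3 Bmal1+/- mice. Every mutant lay below every control, and Bmal1-/- replicate 1 was the lowest. The mean was 1096 ± 213 in Bmal1-/- skin and 1654 ± 90.4 in Bmal1+/- skin (SD, n = 3 each), or 66.3% of the control mean. The log2 fold change was −0.60 (SE 0.12, 95% interval −0.88 to −0.32), with an unadjusted p of 0.00078 and an adjusted p of 0.13 from limma, so it did not pass over all probe sets. An exact permutation test of 1 probe set, with 3 mice against 3, cannot go below p = 0.1.

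The size of this difference moved with single mice and the call moved with the test. Without Bmal1-/- replicate 1 the log2 fold change of Ces1d was −0.44 (adjusted p = 0.076 from limma), and without Bmal1+/- replicate 1, the male, it was −0.64 (unadjusted p = 0.0018, adjusted p = 0.25). Without Bmal1+/- replicate 2 or 3 its unadjusted p from limma was 0.0035 and 0.0040. In limma, then, it rose above 0.001 when any 1 control was left out, in fits that also hold fewer mice. A regularised test was built after Cyber-T, the program to which the study applied its threshold, and was run on all 6 mice only. It gave Ces1d an unadjusted p of 6.5e-06 and an adjusted p of 0.0018. At an unadjusted p under 0.001 it passed 2 of the 76 probe sets (2.63%), both lower. Over all probe sets it passed 0.846% as lower and 0.491% as higher. Both tests were also run on simulated data, with each probe set's residual SD taken as its true SD. There a larger share of the Cyber-T type calls were false than of limma's, and above the nominal rate. SDs estimated from 6 mice spread more widely than true SDs, and the tests use that spread differently. The simulation therefore cannot say which test was nearer the truth on these arrays.

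Because Ces1d is known from fat cells, adipocyte markers were set beside it. Of 7 adipocyte markers 6 were measured, none was called, and their median log2 fold change was 0.08. Their summed intensity ran between 12055 and 15978 in Bmal1-/- skin and between 12785 and 13577 in Bmal1+/- skin. Lep, the adipocyte hormone leptin, was 86.3, 467 and 689 in Bmal1-/- skin, against 675, 584 and 493 in Bmal1+/- skin, and its low mouse, Bmal1-/- replicate 1, was the one with the lowest Ces1d. In that mouse Plin1, the lipid droplet coat protein perilipin, and Lipe, hormone-sensitive lipase, were the highest of all 6 mice, at 2311 and 1635. The log2 fold change was −0.87 for Lep (95% interval −2.13 to 0.40), 0.24 for Plin1, 0.17 for Cidec, 0.09 for Adipoq, 0.07 for Fabp4 and −0.02 for Lipe. Pparg, placed in the sebaceous gland list and not in this one, read 1454, 1379 and 1437 in Bmal1-/- skin, against 1147, 1270 and 1155 in Bmal1+/- skin. Its log2 fold change was 0.26 (unadjusted p = 0.0022 and adjusted p = 0.22 from limma). The part of these values in the Ces1d result was not tested. Of 6 hepatocyte markers 5 were measured, with summed intensities of 733 to 784 in Bmal1-/- skin and 669 to 740.4 in Bmal1+/- skin, and Alb, serum albumin, was at 75.4, 110 and 117 in Bmal1-/- skin and 119, 147 and 98.0 in Bmal1+/- skin. Alb had a log2 fold change of −0.24 with overlap, while Ttr and Ahsg, both at 0.27, were wholly higher in Bmal1-/- skin, and Apoa1 and Cps1 were at 0.14 and 0.11 with overlap.

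**Figure D2:**
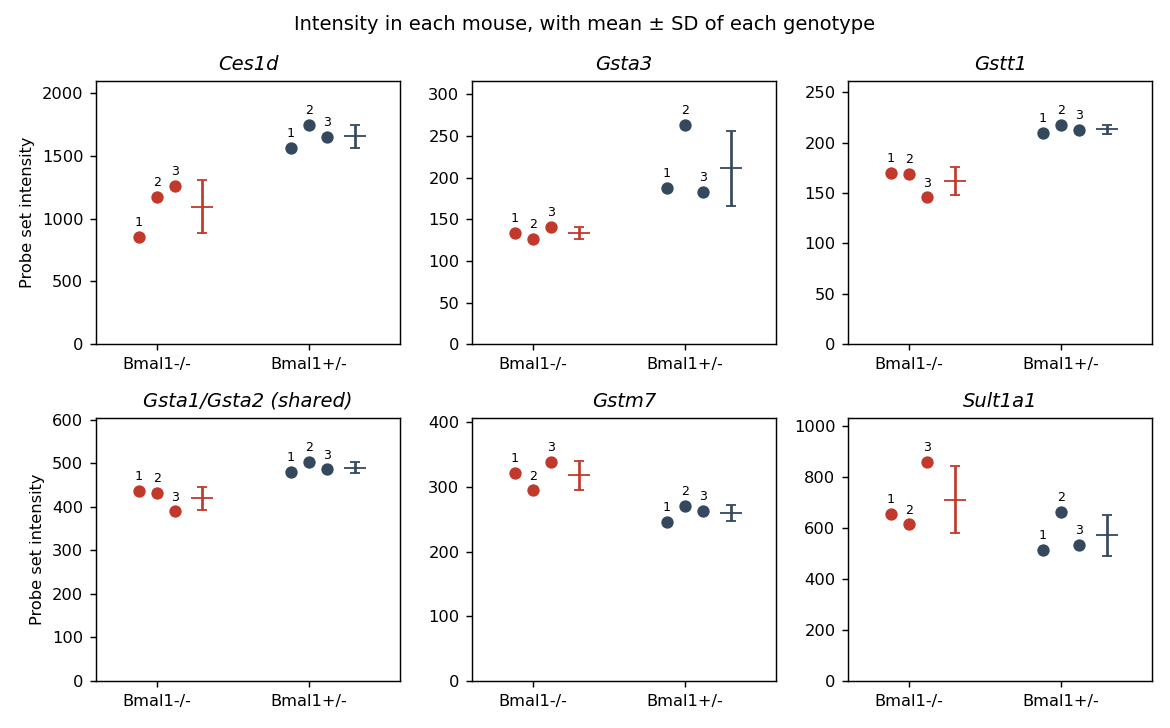
Each point is 1 mouse, with its replicate number above it, and the vertical axis is the intensity as deposited, from 0, for 6 probe sets. Each bar gives a genotype's mean with its SD (n = 3). The Bmal1-/- mice all lie below the Bmal1+/- mice for Ces1d, Gsta3, Gstt1 and the shared Gsta1 and Gsta2 probe set, all above them for Gstm7, and overlap them for Sult1a1.

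Ces1d lies on chromosome 8 in a row of Ces1 genes that arose by duplication. None of the 6 other Ces1 genes had a p under 0.05 from limma, adjusted or not. Ces1c, an esterase secreted into mouse plasma, had a log2 fold change of 0.14 (95% interval −0.18 to 0.47), and Ces1e, on the other side, 0.08 (−0.30 to 0.47). Ces1a had 53.3, 65.9 and 81.3 in Bmal1-/- skin, against 77.9, 71.5 and 93.4 in Bmal1+/- skin, a log2 fold change of −0.23 (limma: SE 0.14, adjusted p = 0.68), and the genotypes overlapped. Ces1g, which in mouse liver takes part in triacylglycerol turnover, was at −0.19 (−0.51 to 0.12), Ces1b at −0.15 and Ces1f at 0.06. All 6 of these neighbours overlapped between genotypes. The interval of Ces1d, which ends at −0.32, overlaps those of Ces1a, Ces1b and Ces1g, and whether Ces1d differed from them was not tested.

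**Figure D3:**
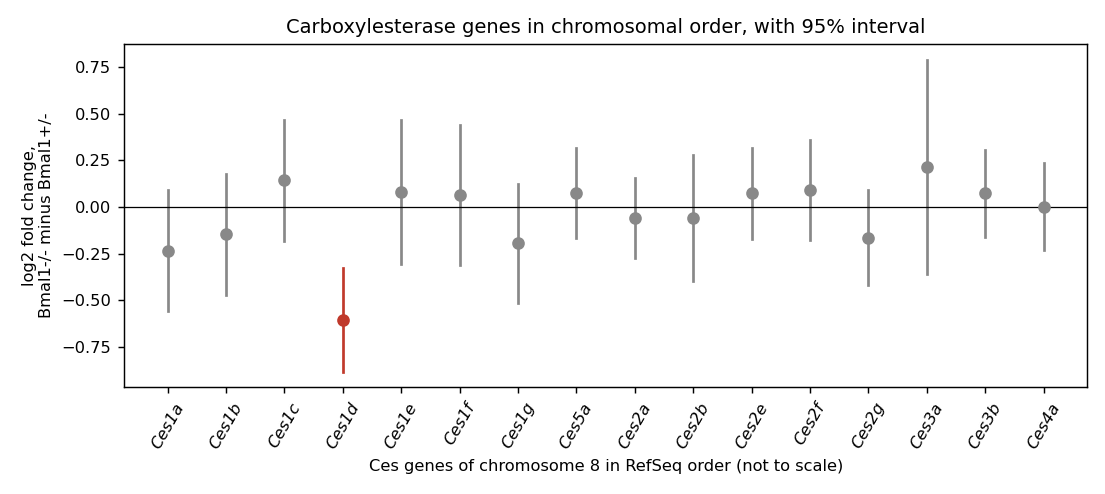
Log2 fold change (vertical axis, Bmal1-/- minus Bmal1+/-) of the 16 Ces genes of chromosome 8 with its 95% interval from limma, in RefSeq order from left to right. Ces1d, at −0.60, is the only one whose interval leaves out 0; Ces3a has the widest interval.

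The Ces1 promoters were searched for the motifs through which the clock acts on its targets. The D-box, written TTATGTAA or TTACGTAA and searched on both strands, is bound by PAR bZIP factors such as DBP, which are themselves outputs of CLOCK and BMAL1. RefSeq promoters (GRCm38.p6, 250 bases before to 50 after the start) matched 68 of the 79 genes named by the 76 probe sets; Ces1d and Ces1f were not among them. A D-box stood in the windows of 6 of these 68 genes (8.82%), against 1.23% of all 27025 genes with promoters of the same length. A gene with several RefSeq starts counted where any of its windows matched. The 6 genes were Ces1a, Ces1b, Ces1c, Ces1e, Ces1g and Ugt2b1. The Ces1 genes are copies of one another, so their matches are not independent. The 44 bases around the match are shown for the 5 Ces1 genes, 5′ to 3′ in the direction of the gene, with the D-box in capitals.
Ces1a, chr8:93048365-93048408, minus strand: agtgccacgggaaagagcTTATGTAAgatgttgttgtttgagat
Ces1b, chr8:93079999-93080042, minus strand: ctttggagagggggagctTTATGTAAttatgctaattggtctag
Ces1c, chr8:93131352-93131395, minus strand: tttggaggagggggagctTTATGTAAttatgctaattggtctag
Ces1e, chr8:93229675-93229718, minus strand: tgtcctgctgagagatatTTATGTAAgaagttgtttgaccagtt
Ces1g, chr8:93337416-93337459, minus strand: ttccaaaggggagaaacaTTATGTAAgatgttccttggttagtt

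Counted from the start of the gene, the first base of the match lay at −198 in Ces1a, −84 in Ces1b, −94 in Ces1c, −81 in Ces1e and −232 in Ces1g, while from another RefSeq start of Ces1b the same match lay at −7. The 5 genes that carry the motif had log2 fold changes of −0.23, −0.15, 0.14, 0.08 and −0.19 in that order, and none of them passed the test. A match of letters is a description of the window and not evidence of binding.

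The other carboxylesterases showed smaller differences. Ces2g (probe set 10574572) had 506, 501 and 414 in Bmal1-/- skin, against 621, 515 and 467 in Bmal1+/- skin, a log2 fold change of −0.16 (limma: SE 0.11, adjusted p = 0.71), and Ces2f was at 0.09. The other Ces2 genes, Ces2a, Ces2b and Ces2e, were at −0.06, −0.06 and 0.07. Ces4a, at 1035, 1388 and 1357 in Bmal1-/- skin and 1267, 1182 and 1298 in Bmal1+/- skin, had a log2 fold change of 0.00 (95% interval −0.23 to 0.24). The 2 genotypes overlapped for Ces2g and Ces4a. Ces3a had the widest interval of the family, −0.36 to 0.79 around 0.22. Its values were 153, 175 and 167 in Bmal1-/- skin, against 169, 77.8 and 200.02 in Bmal1+/- skin, and Bmal1+/- replicate 2 stood apart: without that mouse the value turned to −0.15. Ces3b was at 0.07, and the 2 probe sets of Ces5a, whose product is known as a urinary protein of cats, were at 0.07 and −0.04.

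Within the glutathione S-transferases the classes lay on different sides of 0. All 6 Gsta (alpha class) and all 4 Gstp (pi class) probe sets had a negative log2 fold change, as had 3 of 4 Gstt (theta class), while 7 of 8 Gstm (mu class) had a positive one. The median was −0.21 for Gsta, −0.18 for Gstp, −0.19 for Gstt and 0.05 for Gstm. Members of a class share sequence and in part probe sets, so these counts are not counts of independent genes, and no difference between classes was tested.

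Gsta3 (probe set 10345065, chromosome 1) had the most negative value of the Gst family. The alpha class detoxifies products of lipid peroxidation, and mouse Gsta3 is known for conjugating the epoxide of aflatoxin. It read 133, 126 and 141 in the 3 Bmal1-/- mice, against 188, 263 and 183 in the 3 Bmal1+/- mice. The mutants were close together and wholly below the controls, of which replicate 2 was the highest. The mean was 134 ± 7.63 in Bmal1-/- skin and 211 ± 45.04 in Bmal1+/- skin (SD, n = 3 each). The log2 fold change was −0.59 (SE 0.13, 95% interval −0.89 to −0.29), with an unadjusted p of 0.0014 and an adjusted p of 0.18 from limma. Without Bmal1+/- replicate 2 it was −0.43 (adjusted p = 0.25 from limma), and without the male, Bmal1+/- replicate 1, it was −0.66 (adjusted p = 0.25). It was the other member to pass with the Cyber-T type test (adjusted p = 0.0092).

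The Gsta3 promoter held 1 match to the antioxidant response element, TGACNNNGC, the site at which NRF2 turns on many Gst genes, searched on both strands. The match began at −121 from the start. Such a match was found for 3 of the 68 genes (4.41%), Gsta3, Gstm5 and Gstm7, against 14.0% of all genes with a promoter. The windows of the most negative and the most positive Gst gene of these data are set side by side, with the element in capitals.
Gsta3, chr1:21240446-21240490, plus strand: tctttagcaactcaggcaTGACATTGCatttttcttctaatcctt
Gstm7, chr3:107931717-107931761, minus strand: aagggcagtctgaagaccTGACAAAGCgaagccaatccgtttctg

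Gsta1 and Gsta2 had no probe set of their own. They shared 4 probe sets with 2 predicted genes, Gm10639 and Gm3776, so a level of either gene cannot be given. The brightest of the 4 (probe set 10587323) had 436, 432 and 389 in Bmal1-/- skin, against 479.7, 504 and 486 in Bmal1+/- skin, a log2 fold change of −0.22 (limma: SE 0.07, adjusted p = 0.41). In all 4 the mutants lay wholly below the controls, with log2 fold changes of −0.22 to −0.20 and adjusted p of 0.41 to 0.49. After centring, the 4 differed by at most 0.04 on the log2 scale in any mouse, so they stand for about 1 measurement. The 100 bases before the start show how alike the 2 genes are, and how much less like Gsta3.
Gsta1, chr9:78230569-78230668, plus strand: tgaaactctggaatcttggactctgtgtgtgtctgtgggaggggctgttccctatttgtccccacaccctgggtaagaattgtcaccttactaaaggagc
Gsta2, chr9:78347146-78347245, minus strand: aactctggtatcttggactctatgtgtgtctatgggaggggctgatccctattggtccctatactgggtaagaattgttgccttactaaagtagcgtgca
Gsta3, chr1:21240485-21240584, plus strand: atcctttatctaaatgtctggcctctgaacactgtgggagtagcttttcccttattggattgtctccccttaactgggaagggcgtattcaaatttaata

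In a global alignment of these 100 bases, 85 were identical between Gsta1 and Gsta2, 58 between Gsta1 and Gsta3 and 59 between Gsta2 and Gsta3. Gsta4, which favours the lipid peroxidation product 4-hydroxynonenal, had 206, 222 and 242 in Bmal1-/- skin, against 218, 311 and 231 in Bmal1+/- skin, a log2 fold change of −0.16 (95% interval −0.44 to 0.13), and the genotypes overlapped.

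In the theta class, which acts on small halogenated compounds, Gstt1 (probe set 10370000) was wholly lower in the mutants. It had 170.2, 169 and 146 in Bmal1-/- skin, against 209, 218 and 212 in Bmal1+/- skin, a log2 fold change of −0.37 (SE 0.09, 95% interval −0.57 to −0.17, unadjusted p = 0.0022 and adjusted p = 0.22 from limma). The 3 controls lay close together, and a gap parted them from the highest mutant. With the Cyber-T type test its adjusted p was 0.089. Gstt1 lies on chromosome 10 between Gstt3 and Gstt4, with Gstt2 beyond. Gstt3 had 336, 397 and 343 in Bmal1-/- skin, against 395, 394 and 434 in Bmal1+/- skin, a log2 fold change of −0.18 (95% interval −0.37 to 0.01). Gstt2 had 166, 164 and 172 in Bmal1-/- skin, against 169, 187 and 233 in Bmal1+/- skin, a log2 fold change of −0.20 (−0.45 to 0.06). Gstt4 was at 0.03. All 3 overlapped between genotypes.

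The pi class, among the Gst enzymes abundant in epithelia, gave different values by probe set. The probe set of Gstp1 alone (10464583) had 1374, 1178 and 1236 in Bmal1-/- skin, against 1429, 1449 and 1119.7 in Bmal1+/- skin, a log2 fold change of −0.07 (95% interval −0.30 to 0.16), and the genotypes overlapped. The 2 probe sets shared by Gstp1 and Gstp2 were wholly lower in the mutants. The brighter one (10464586) had 924, 895 and 913 in Bmal1-/- skin, against 1020.3, 1138 and 939 in Bmal1+/- skin, a log2 fold change of −0.17 (limma: SE 0.07, adjusted p = 0.56), and the other was at −0.19 (adjusted p = 0.51). Gstp3 had 113, 124 and 129.6 in Bmal1-/- skin, against 152, 140.1 and 132 in Bmal1+/- skin, also without overlap, a log2 fold change of −0.19 (limma: SE 0.10, adjusted p = 0.62).

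The E-box CACGTG, to which CLOCK and BMAL1 bind, was found in the windows of 0 of the 68 genes, against 8.09% of all genes with a promoter. Its variant, the E′-box CACGTT, stood in 5 (7.35%), against 5.44% of all. Gstp1 and Gstp2 were 2 of the 5, with the match in the same surroundings, and their 66-base windows are shown because these genes share probe sets; capitals mark the E′-box, which lies on the other strand.
Gstp1, chr19:4037958-4038023, minus strand: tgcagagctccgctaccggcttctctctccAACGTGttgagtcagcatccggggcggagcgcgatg
Gstp2, chr19:4042282-4042347, minus strand: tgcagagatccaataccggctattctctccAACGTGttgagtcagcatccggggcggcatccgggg

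The match began at −81 from the start in Gstp1 and at −96 in Gstp2, and of the 250 bases before the start 207 were identical in an alignment of the 2 genes. The RRE core AGGTCA, bound by REV-ERB and ROR receptors, was found in the windows of 14 of the 68 genes (20.6%), against 18.1% of all. The absence of a motif says only that its letters are not in this window.

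Gstm7 (probe set 10501199, chromosome 3) was the mu class member with the largest difference. It had 321, 295 and 339 in the 3 Bmal1-/- mice, against 247, 270.2 and 263 in the 3 Bmal1+/- mice. The mutants lay wholly above the controls, a log2 fold change of 0.28 (SE 0.08, 95% interval 0.09 to 0.46), with an unadjusted p of 0.0077 and an adjusted p of 0.35 from limma. Its value stayed between 0.23 and 0.33 over the settings tried. Gstm3 had 2 probe sets. The brighter had 1013, 918 and 1033 in Bmal1-/- skin, against 879.6, 964 and 808 in Bmal1+/- skin, a log2 fold change of 0.16 (95% interval −0.02 to 0.34) with overlap, and the dimmer, at 0.12, was wholly higher. Gstm1, a major mu class enzyme of mouse liver, had 1413, 1253 and 1359 in Bmal1-/- skin, against 1225, 1458 and 1226 in Bmal1+/- skin, a log2 fold change of 0.04 (−0.14 to 0.23). Gstm4, Gstm5 and Gstm6 were between 0.01 and 0.05, and Gstm2 at −0.07.

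The remaining classes held few genes and gave no call. Gstz1, the maleylacetoacetate isomerase of tyrosine breakdown, had a log2 fold change of 0.08 (95% interval −0.21 to 0.37). Gsto1, which can reduce dehydroascorbate, was at −0.08 (−0.22 to 0.07), its neighbour Gsto2 at 0.18 (−0.06 to 0.41), and Gstk1, an enzyme of mitochondria and peroxisomes, at 0.05 (−0.18 to 0.29). For all 4 the genotypes overlapped.

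**Figure D4:**
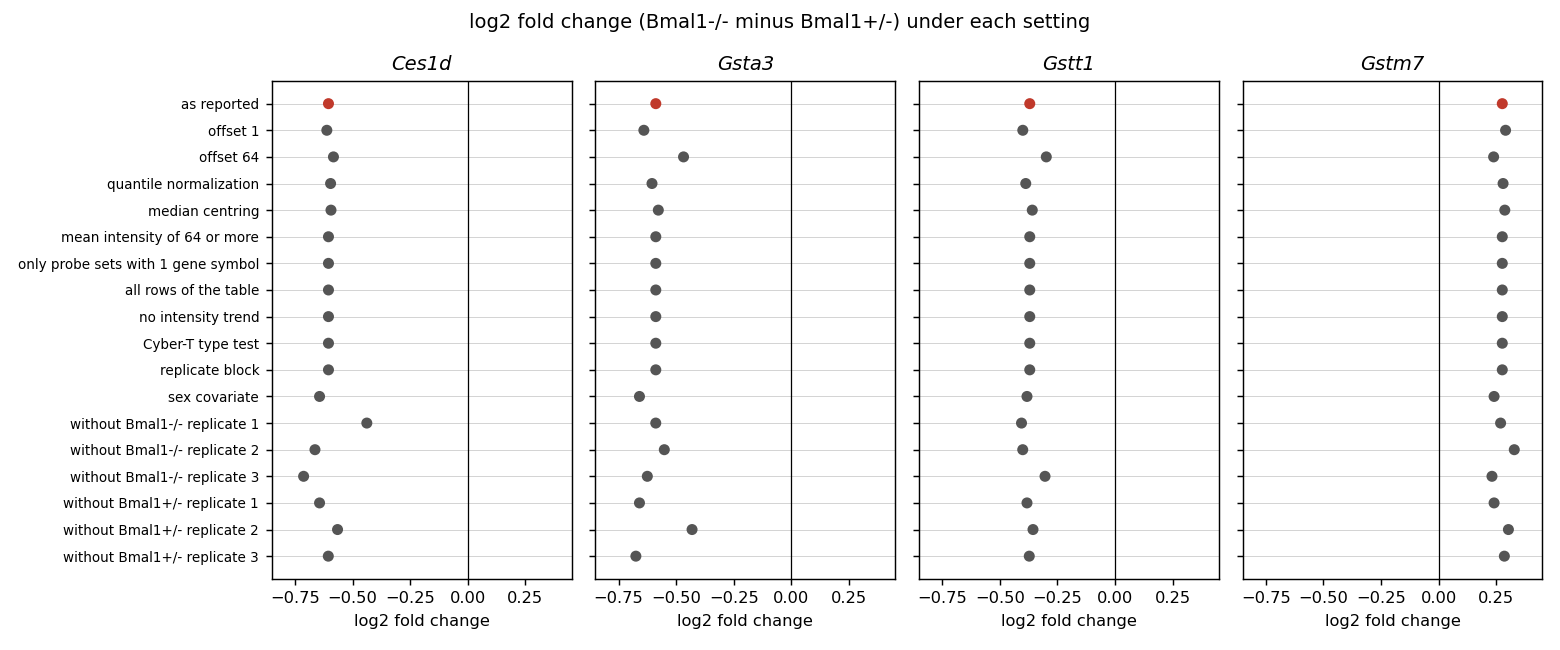
Log2 fold change (horizontal axis, Bmal1-/- minus Bmal1+/-) of Ces1d, Gsta3, Gstt1 and Gstm7 as reported (red) and under 17 other settings (grey), 1 per line. Each gene keeps its side of 0. Ces1d is nearest 0 without Bmal1-/- replicate 1, at −0.44, and Gsta3 without Bmal1+/- replicate 2, at −0.43. The row filters, the fit without the trend, the Cyber-T type test and the replicate block cannot move the value. Sex as a covariate repeats the value without Bmal1+/- replicate 1, the only male.

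The sulfotransferases were mostly dim, with a mean intensity under 64 in 13 of 18 probe sets, and 14 had a positive log2 fold change. Over all 3049 probe sets that dim 72.8% were positive, against 52.0% of the brighter ones. Of the 5 brighter Sult probe sets, those of Sult1a1, Sult2b1, Sult4a1 and Sult5a1 were at 0.30, 0.09, 0.11 and 0.06. That of Sult2a1 with Sult2a2 was at −0.0044. Sult1a1 (probe set 10568001, chromosome 7), which sulfates phenols, had 655, 613 and 859 in Bmal1-/- skin, against 514, 663 and 534 in Bmal1+/- skin. The genotypes overlapped, since Bmal1+/- replicate 2 lay above 2 of the mutants. The log2 fold change was 0.30 (SE 0.13, 95% interval 0.00 to 0.60, unadjusted p = 0.048 and adjusted p = 0.56 from limma), and it was 0.23 without the male. Sult2b1, which makes the cholesterol sulfate of the epidermal barrier, had 569, 677 and 629 in Bmal1-/- skin, against 564, 578 and 619 in Bmal1+/- skin, a log2 fold change of 0.09 (−0.09 to 0.26), so that a change beyond 0.26 lay outside its interval. Sult5a1 was at 0.06 (−0.10 to 0.22), and Sult4a1, known from brain, at 0.11 (−0.14 to 0.35).

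The largest positive value of all 76 probe sets was that of Sult1e1, the estrogen sulfotransferase, at 0.37 (95% interval −0.02 to 0.76), chosen after its values were seen. Its intensities were 12.8, 11.5 and 15.9 in Bmal1-/- skin, against 6.69, 2.2 and 12.4 in Bmal1+/- skin. These lie at or below the constant of 16 added before taking logs, the genotypes overlapped, and the value ran between 0.12 and 1.05 over the settings. Sult1c2, another member of the phenol family, was at 0.33 (−0.04 to 0.69) with 41.3, 63.7 and 54.1 in Bmal1-/- skin and 41.6, 29.2 and 46.0 in Bmal1+/- skin, and overlapped. Sult1b1 was wholly higher in the mutants, with 18.9, 21.4 and 19.9 in Bmal1-/- skin, against 14.6, 14.9 and 17.6 in Bmal1+/- skin (log2 fold change 0.19, adjusted p = 0.68 from limma). The Sult2a genes, which sulfate bile acids and steroids in liver, were between −0.01 and 0.17 over 5 probe sets. The remaining dim members were Sult1c1 at −0.09, Sult1d1 at 0.12, Sult3a1 at −0.08, Sult3a2 at 0.01, Sult6b1 at 0.15 and Sult6b2 at 0.20, all with overlap.

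Among the UDP-glucuronosyltransferases 13 of 15 probe sets had a positive log2 fold change, none over 0.24, and 10 had a mean intensity under 64. Over all probe sets tested 54.7% of the values were positive, and among those with a mean intensity under 64 the share was 72.8%. Among the brighter ones it was 52.0%. Of the 5 brighter Ugt probe sets, those of Ugt1, Ugt2b37, Ugt2b5 and Ugt8a were at 0.09, 0.13, 0.24 and 0.10. That of Ugt2b38 was at −0.06. The Ugt1 locus makes its enzymes from alternative first exons joined to shared ones, and its single probe set carries the symbols of several of them. It had 1004, 997 and 1062 in Bmal1-/- skin, against 889, 931 and 1064 in Bmal1+/- skin, a log2 fold change of 0.09 (SE 0.08, 95% interval −0.08 to 0.26). The genotypes overlapped through Bmal1+/- replicate 3, which was as high as the highest mutant.

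The Ugt2 genes, which in liver glucuronidate steroids and bile acids, lie together on chromosome 5. Ugt2b5 (probe set 10531057) was the only one without overlap, with 82.4, 96.4 and 85.1 in Bmal1-/- skin, against 76.4, 64.2 and 76.5 in Bmal1+/- skin, a log2 fold change of 0.24 (limma: SE 0.11, adjusted p = 0.59). Its neighbours Ugt2b36 and Ugt2b37 were both at 0.13. Ugt2b34, Ugt2b35, Ugt2a3 and the probe set shared by Ugt2a1 and Ugt2a2 were between 0.01 and 0.14. Ugt2b38 was at −0.06. Ugt2b1, whose promoter held the D-box match outside the Ces1 genes, was at −0.07 (−0.35 to 0.21). Ugt8a, the ceramide galactosyltransferase that makes the galactolipids of myelin, had 424, 369 and 439.9 in Bmal1-/- skin, against 372, 421 and 356 in Bmal1+/- skin, a log2 fold change of 0.10 (−0.11 to 0.30). The brighter of the 2 probe sets shared by Ugt3a1 and Ugt3a2 was at 0.09 (−0.24 to 0.42), with Bmal1+/- replicate 1, the male, at 34.2 and the other 5 mice between 48.2 and 54.6. The other shared probe set was at 0.04, and those of Ugt3a1 and Ugt3a2 alone at 0.10 and 0.07.

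The enzymes that supply and remove the conjugated groups gave no call either. Of 71 genes in 8 lists around conjugation 67 were measured, and 0 were lower and 0 higher at an adjusted p under 0.05, both from limma and from the Cyber-T type test. At an unadjusted p under 0.05 from limma 4 (5.97%) were lower and 3 (4.48%) higher, near the 4.6% and 4.17% of all probe sets. Of the 13 measured genes of glutathione supply, with a median log2 fold change of 0.04, Cth, which makes cysteine from cystathionine, was wholly higher: 238, 213 and 263 in Bmal1-/- skin, against 199.8, 208 and 161 in Bmal1+/- skin, a log2 fold change of 0.31 (limma: SE 0.11, adjusted p = 0.48). Ggt7 was at 0.14. Of the 6 membrane-bound glutathione transferases, with a median of 0.09, the prostaglandin E synthase Ptges had 1223, 888 and 861 in Bmal1-/- skin, against 765, 806 and 677 in Bmal1+/- skin, also without overlap, a log2 fold change of 0.38 (limma: SE 0.13, adjusted p = 0.42), and Mgst2 was at −0.19.

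The lists for the supply of the sugar and sulfate donors both had a median below 0. Of the 4 genes of UDP-glucuronic acid supply, with a median of −0.12, Ugp2, which makes UDP-glucose, was at −0.19 (95% interval −0.39 to 0.02) and the transporter Slc35d2 at −0.16. Of the 5 genes of PAPS supply, PAPS being the sulfate donor of every sulfotransferase, the median was −0.10. The PAPS synthase Papss2 had 419.6, 410.1 and 415 in Bmal1-/- skin, against 467, 479 and 446 in Bmal1+/- skin, without overlap (log2 fold change −0.16, SE 0.07, adjusted p = 0.54 from limma), and Papss1 was at −0.12. Of the 4 measured deconjugating enzymes Gusb, the β-glucuronidase, was at −0.09 and Arsg at −0.05.

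Of 14 other phase II transferases and hydrolases, with a median of −0.08, the methyltransferase Inmt had the largest value, −0.55, and the widest interval, −1.41 to 0.32: it was 317, 144 and 488 in Bmal1-/- skin and 511, 556 and 263 in Bmal1+/- skin. Ephx2, the soluble epoxide hydrolase, was at 0.30 with overlap (unadjusted p = 0.047 from limma). The microsomal epoxide hydrolase Ephx1, named after its values were seen, was wholly lower, with 1606, 1726 and 1711 in Bmal1-/- skin, against 1934, 1879 and 1972 in Bmal1+/- skin (log2 fold change −0.20, unadjusted p = 0.0058 and adjusted p = 0.32 from limma, the lowest of the 8 lists), as was the paraoxonase Pon3 at −0.23. Of 9 efflux transporters, with a median of −0.02, Abcb1b, a P-glycoprotein, was wholly lower, with 301, 289 and 299.8 in Bmal1-/- skin, against 318, 374 and 372 in Bmal1+/- skin (log2 fold change −0.24, SE 0.08, adjusted p = 0.44 from limma), and Abcc4 was at −0.21. Of 12 regulators of xenobiotic and redox responses, with a median of 0.00, the values ran between −0.10 and 0.14, with Nr1i2, the pregnane X receptor, at 0.14 and the NRF2 target Nqo1 at 0.12.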

How the data were processed

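The deposited values are linear intensities, 1 per probe set, of 6 arrays. The submitters' notes name PLIER 2.0 and Affymetrix Expression Console 1.1. The sources used here give neither the background correction and scaling between arrays nor the genome build. From these values, log2(intensity + 16) was tested with limma 3.58.1 (R 4.3.3, eBayes with an intensity trend), two-sided, without a block, over the 23410 probe sets with at least 1 symbol. The p-values were adjusted by Benjamini-Hochberg over all of them. Probe sets without a symbol (12147) were left out. Genotypes and replicate numbers came from the labels, which call the samples biological replicates. Depth cannot be stated for arrays; their number limits the precision.

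Members with a p under 0.001, the brightest of each subfamily, and the 2 of largest change in a subfamily with a mean intensity of 64 or more were named, as were members without overlap that changed by 0.5 or more; others were named after their values were seen, to complete a class or cluster. Members and lists were chosen with earlier results of these data known. Chromosomes, gene order and promoters came from RefSeq (GRCm38.p6). The limma and Cyber-T type tests were checked on simulated data. Alternatives were offsets of 1 and 64, quantile normalization, median centring, row filters, a fit without the trend, the Cyber-T type test (window 101, weight 10), a replicate block, sex as a covariate, and leaving out each mouse.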

Additional observations from a re-analysis of the deposited data

How the results depend on the processing

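Over the 17 alternatives, 0 of the 76 probe sets were called higher at an adjusted p under 0.05 and 0 lower, except that the Cyber-T type test called 2 lower, Ces1d and Gsta3. The count lower at an unadjusted p under 0.001 (1, Ces1d) became 2 with that test and 0 over all rows of the table, without the intensity trend and with sex as a covariate. Leaving out 1 mouse gave 0 to 1, with 0 without Bmal1+/- replicate 1, 2 or 3. Over all probe sets, 31 lower and 23 higher became 19 and 15 over all rows, 16 and 11 without the trend, and 177 and 96 with the Cyber-T type test; leaving out 1 mouse gave 22 to 34 lower and 13 to 23 higher (15 without Bmal1-/- replicate 1, 13 without Bmal1-/- replicate 3, 15 without Bmal1+/- replicate 2). The causes were not tested.

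The genotypes share replicate numbers, and the deviations of same-numbered mice correlated at 0.08, −0.35 and 0.06. Those of differently numbered mice ran between −0.26 and 0.26. With so few mice per genotype these correlations cannot decide whether the numbers pair littermates, which the labels do not state. With the replicate number as a block, 0 members were called, 34 probe sets were lower and 20 higher, and Ces1d had an adjusted p of 0.071 from limma.

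Of the 76 probe sets, 49 kept 1 sign over every setting that gave a value. Not every setting could change a sign. The row filters, the fit without the trend, the Cyber-T type test and the replicate block leave the log2 fold change as it was. Sex as a covariate repeats the value without Bmal1+/- replicate 1. Of the 36 that the naming rule picked, 7 changed sign. Their values with 1 mouse left out ran as follows. Gstz1 ran between −0.060 (without Bmal1+/- replicate 3) and 0.19, with −0.011 without Bmal1-/- replicate 1. The probe set of Ugt3a1 and Ugt3a2 ran between −0.072 (without Bmal1+/- replicate 1) and 0.17, and was −0.072 with sex as a covariate. Ugt2b38 ran between −0.17 and 0.070 (without Bmal1+/- replicate 3), with 0.041 without Bmal1-/- replicate 1, and Gstk1 between −0.044 (without Bmal1+/- replicate 3) and 0.15. The probe set of Sult2a1 and Sult2a2 ran between −0.11 and 0.13 (without Bmal1+/- replicate 3), with 0.042 without Bmal1-/- replicate 1, and was 0.0065 with median centring. Ces3a ran between −0.15 (without Bmal1+/- replicate 2) and 0.45. Ces4a ran between −0.073 (without Bmal1-/- replicate 2) and 0.14, with −0.057 without Bmal1-/- replicate 3 and −0.037 without Bmal1+/- replicate 2. For probe sets near an intensity of 16 the added constant shrinks any change.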
